A study of Mus musculus with 21 samples.

Results

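The genes described here belong to 9 gene families of mouse immunity: H2 (the mouse major histocompatibility complex, MHC), Klra, Klrb and Klrc (receptors of natural killer cells), Nlrp and Naip (cytosolic sensors of microbes and damage), and Ifi, Oas and Gbp (genes induced by interferon). A single-nucleotide variant (SNV) was taken as a member when its annotated region was not intergenic and any gene symbol in its annotation began with one of the 9 prefixes. The rule gave 73 distinct sites among 2510 non-intergenic sites of the embryonic stem cell (ESC) set and 91 among 14644 of the tumour set. They carried 59 gene symbols, 44 in the ESC set and 29 in the tumour set, with 14 in both. The overlap over all genes was not counted, so whether 14 is many or few cannot be told. No intergenic line named a gene of these families, so the condition on the region removed none.

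The study sequenced genomic DNA of mouse ESCs kept in 5 media and of tumours, and listed the SNVs of each library against a control. All samples carried the strain label C57BL6X129S6F1. The 18 libraries with a list were 10 ESC libraries, numbered 3 and 5 in each medium, and 8 tumours taken from mice made from ESCs by tetraploid complementation. The series text names exome sequencing in its title and ATAC-seq for the tumours, which leaves the tumour assay unsettled.

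Every medium held 1000 IU of mouse LIF, the cytokine that sustains ESC self-renewal. SL was KO-DMEM with 15% fetal bovine serum on feeder cells. 2iL was N2B27 with 3 µM Chir99021, a GSK3 inhibitor, and 1 µM PD0325901, a MEK inhibitor, on feeders. A2iL was N2B27 with 3 µM Chir99021 and 1.5 µM CGP77675, a Src family inhibitor, on feeders, and LCDM was N2B27 with 3 µM Chir99021, 2 µM Dim and 2 µM Mih on feeders. 2iL-F was 2iL without feeders. The tumours were labelled T-2iL-P9 (1 tumour), T-A2iL-P9 (3), T-A2iL-P14 (1), T-LCDM-P9 (2) and T-2iL-F-P9 (1). The labels do not say what P9 and P14 stand for, nor whether libraries of 1 group came from separate lines or mice, so p-values measure only the spread between these libraries. The control of the ESC lists was 1 mouse embryonic fibroblast (MEF) library, and that of the tumour lists was 1 of 2 wild-type blood samples.

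MHC class I molecules present peptides at the cell surface, where T cells and natural killer cells read them. In the mouse the Klra genes encode the Ly49 receptors, C-type lectins that bind class I, while Klrc1 encodes NKG2A, an inhibitory receptor for the non-classical class I molecule Qa-1. Naip proteins bind bacterial flagellin or secretion-system proteins and activate the Nlrc4 inflammasome, and several Nlrp proteins form or regulate inflammasomes while others are known from the oocyte. Many of these genes, though not all, lie in tandem arrays of related copies, and the gene content of some arrays differs between inbred mouse strains. Where copies are close, short reads of 1 copy can resemble another.

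The ESC and tumour lists differ in their making and are described apart. No 2 calls of an ESC list lay closer than 10 kb, so a listed site can hide a neighbouring one. No ESC member had a dbSNP identifier (0 of 73 sites, with 0.00% of all ESC non-intergenic sites), whereas 86 of the 91 tumour member sites had one (95.3% of all tumour non-intergenic sites). The median depth of member calls was 119 to 179 reads in the ESC libraries, against a median control depth of 124.5 to 159 reads at the same calls. In the tumours the corresponding medians were 27 to 51 reads, against 19 to 52 reads in the control. T-LCDM-P9 replicate 2 stood apart from the other 7 tumours before any comparison: it held 3558 non-intergenic calls against 9533 to 10076, and none of its 3 member sites was called in another tumour.

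The SL libraries 3 and 5 held 37 and 33 member SNVs, the 2iL libraries 33 and 34, the A2iL libraries 38 and 36, the LCDM libraries 32 and 34, and the 2iL-F libraries 34 and 38. Both A2iL counts lay above those of 2iL and LCDM, while the SL and 2iL-F counts overlapped those of every other medium. They made up 2.96 to 3.51% of the non-intergenic calls of an ESC library. The tumours held 75 in T-2iL-P9, 68, 68 and 78 in T-A2iL-P9, 69 in T-A2iL-P14, 68 and 3 in T-LCDM-P9, and 70 in T-2iL-F-P9. In the 7 tumours other than T-LCDM-P9 replicate 2, members were 0.698 to 0.794% of the non-intergenic calls.

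The families were unevenly represented, and differently in each set. Klra led the ESC set with 29 of the 73 sites, followed by H2 with 14, Naip with 11 and Nlrp with 8. Ifi had 4 sites, Klrb 3, Gbp 2, and Klrc and Oas 1 each. Nlrp led the tumour set with 42 of the 91 sites, followed by Naip with 17, H2 with 10 and Oas with 9, and 0 of the tumour sites lay in a Klra gene. Ifi had 5 tumour sites, Klrb and Gbp 3 each and Klrc 2.

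**Figure D1:**
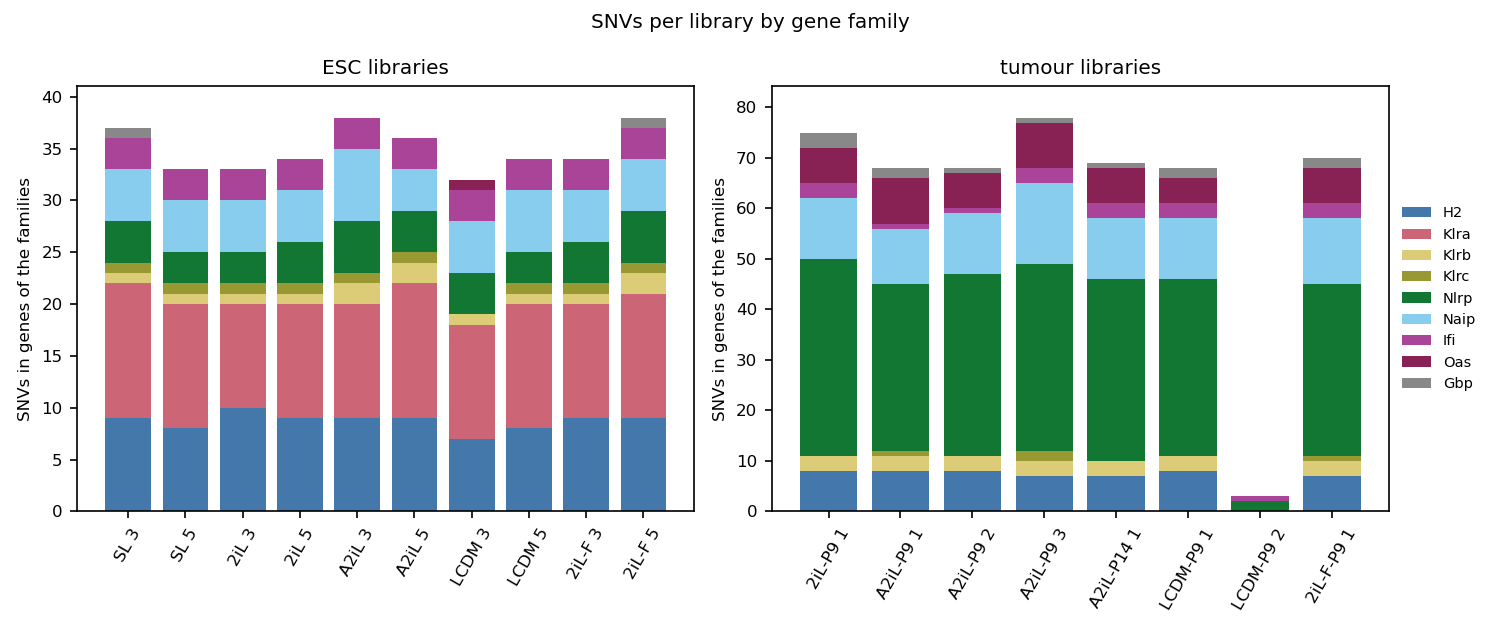
Number of member SNVs (vertical axis) in each library (horizontal axis), stacked by gene family, for 10 ESC libraries on the left and 8 tumours on the right. Klra gave 10 to 13 SNVs in every ESC library and 0 in every tumour. Nlrp gave the largest share in all 8 tumours, and T-LCDM-P9 replicate 2 had 3 member SNVs.

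Of the 73 ESC sites, 34 were intronic, 32 exonic, 4 in introns of non-coding transcripts and 3 in untranslated regions. The 32 coding sites (29.2% of all ESC non-intergenic sites were coding) comprised 21 missense and 11 synonymous changes, with no stop gain, stop loss or splicing site. Of the 91 tumour sites, 59 were intronic, 24 exonic, 4 in untranslated regions, 2 in non-coding transcripts and 2 at splice sites. The 24 coding tumour sites (24.5% of all tumour non-intergenic sites were coding) comprised 12 missense and 12 synonymous changes, again with no stop gain or stop loss.

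The H2 genes of the ESC set held 14 sites on chromosome 17, of which 10 were coding. Of these 10, 9 lay in exon 4 of the listed transcript, the exon that encodes the membrane-proximal α3 domain of class I heavy chains, and the remaining site, the synonymous H2-T3 L186L, lay in exon 3. The exon 4 sites were deeply read, with 145 to 950 reads in the libraries and 286 to 636 reads in MEFs. Their median alternative-allele fractions were low, between 0.0295 and 0.1705. H2-Q1 and H2-Q4, non-classical class I genes of the Qa region, carried a missense SNV in all 10 libraries.

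The H2-Q1 E285K change (mm10 chr17:35323306, G to A) had alternative-allele fractions of 0.071 and 0.068 in both SL libraries, 0.080 and 0.075 in those of 2iL, 0.068 and 0.062 in those of A2iL, 0.057 and 0.082 in those of LCDM, and 0.081 and 0.074 in those of 2iL-F. The SL and A2iL values lay below those of 2iL and 2iL-F, though by as little as 0.071 against 0.074, and the LCDM pair spanned all of them. Such an order describes 2 libraries per medium and was not tested. The site had 40 to 67 alternative reads of 690 to 931 in the libraries, and 0 alternative reads of 636 in MEFs. H2-Q4 N305K (chr17:35383078) lay between 0.051 and 0.085, with a median of 0.0595, on 630 to 885 reads in the libraries. MEFs had 1 alternative read of 621 at that position.

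In H2-D1/H2-L, the classical class I locus, D236N (chr17:35265870) was listed in 7 libraries at fractions of 0.028 to 0.042, and N280K (chr17:35266004) in the libraries 2iL 5 and 2iL-F 5 at 0.028 and 0.031. No library listed both, which the 10 kb spacing of the ESC lists would not allow. In H2-Q10, which encodes a class I molecule secreted by the liver, E288K (chr17:35473325) was listed in 5 libraries at 0.027 to 0.034 and the synonymous L296L in 4 others at 0.034 to 0.044. H2-M10.1 and H2-M10.2, whose products are found on vomeronasal neurons, held synonymous sites only. H2-M10.2 L228L was listed in all 10 libraries at 0.141 to 0.191, and H2-M10.1 T264T in 9 libraries at 0.116 to 0.174.

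The tumour H2 sites looked different. Of the 8 coding sites, 5 lay in exon 3, which encodes the peptide-binding α2 domain, and 1 in exon 4. The 3 missense changes were listed in 7 tumours each. H2-M10.4 T172K (chr17:36461340) had 0.489 in T-2iL-P9, 0.451, 0.531 and 0.479 in T-A2iL-P9, 0.452 in T-A2iL-P14, 0.374 in T-LCDM-P9 replicate 1 and 0.476 in T-2iL-F-P9. H2-M10.4 R19L spanned 0.386 to 0.592 and H2-M5 G200R spanned 0.327 to 0.656, on 40 to 59 and 25 to 52 reads. All 3 had a dbSNP identifier. H2-T3, which encodes the thymus leukaemia antigen, had the most tumour H2 sites with 5, among them the synonymous R101R at 0.132 to 0.209 in 7 tumours.

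The Klra genes lie side by side on chromosome 6, and 19 of their 29 ESC sites were intronic. The annotation listed up to 5 Klra symbols for 1 site. Klra17, which encodes Ly49Q of plasmacytoid dendritic cells, had 5 sites within 401 bp. Each of the 10 libraries listed exactly 1 of them, the most that the 10 kb spacing of the lists allows. One of the 5 was the missense M1V in the initiator codon (chr6:129874907), with 39 alternative reads of 176 in 2iL 5 and 40 of 143 in LCDM 3, fractions of 0.223 and 0.282. The MEF library had 0 alternative reads of 96 there.

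V189L, numbered on Klra15 and listed for Klra15, Klra18, Klra12, Klra22 and Klra4 together (chr6:130053053), had fractions of 0.254 and 0.205 in SL, 0.209 and 0.186 in 2iL, and 0.257 in LCDM 5. The other 5 libraries listed a site within 10 kb instead. K180N, listed for Klra8 and Klra21, was found in 2iL 3 and A2iL 5 at 0.074 and 0.060. Klra8 encodes Ly49H, the activating receptor for a cytomegalovirus protein. Klra10 P219Q was found in LCDM 5 alone, at 0.144 on 111 reads (95% Wilson interval 0.0907 to 0.221, which covers counting error only, as do the other intervals here). Klra5, which encodes Ly49E, carried the synonymous P31P in all 10 libraries at 0.133 to 0.25.

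The Klra7 site is shown in its sequence because it was the only member site within the RefSeq promoter windows (250 bases before to 50 after a transcript start), and because all 10 ESC libraries listed it. It lies in the 5′ untranslated region of the gene for Ly49G, at base 11 from the inner of the transcript starts that RefSeq gives for Klra7, another of which lies further upstream, in RefSeq GRCm38.p6 chr6:130231662-130231691, minus strand. The change is C15T on the gene's strand, counted from 1 at the 5′ end of the printed 30 bases, and the capital marks the changed base.
Klra7 reference: attttaacatttttCgtagaaaccactcaa
Klra7 alternative: attttaacatttttTgtagaaaccactcaa
The alternative-allele fraction was 0.358 and 0.407 in both SL libraries, 0.377 and 0.415 in those of 2iL, 0.450 and 0.583 in those of A2iL, 0.370 and 0.484 in those of LCDM, and 0.581 and 0.540 in those of 2iL-F. Both 2iL-F values exceeded every SL, 2iL and LCDM value, and the A2iL values overlapped those of LCDM and 2iL-F. With 2 libraries per medium this is a description of these libraries. MEFs had 0 alternative reads of 101.

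Of the other natural killer receptor genes, Klrc1 L177F (chr6:129674963) was listed in 9 ESC libraries at 0.054 to 0.188 on 54 to 93 reads, with 122 reads in MEFs. Klrb1a, which encodes a member of the NKR-P1 receptors, carried K121N in 4 ESC libraries at 0.042 to 0.057. A different Klrb1a change, G155D (chr6:128609837), was listed in 7 tumours at 0.336 to 0.415. The Klrc2 and Klrc3 sites of the tumours were intronic and listed in 3 and 1 tumours. The pseudogene Klrb1-ps1 had 2 ESC sites and 1 tumour site, which was listed in 7 tumours at 0.243 to 0.469.

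The Naip genes had a missense SNV in every ESC library. A1269T, numbered on Naip6 and listed for Naip7 and Naip6 (chr13:100285719), had fractions of 0.263 and 0.25 in both SL libraries, 0.198 and 0.239 in those of 2iL, 0.240 and 0.232 in those of A2iL, 0.218 and 0.183 in those of LCDM, and 0.262 and 0.248 in those of 2iL-F. Both LCDM values were below all values of SL, A2iL and 2iL-F, and the 2iL values overlapped those of LCDM. Again this order describes 2 libraries per medium and was not tested. The same pair of symbols carried S69T in 6 libraries at 0.108 to 0.120 on 638 to 822 reads. R497S was listed in LCDM 3 alone at 0.221 (95% Wilson interval 0.177 to 0.273 on 289 reads).

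Naip1, the sensor of secretion-system needle proteins, carried R1137Q in 8 ESC libraries at 0.096 to 0.213 and G152D in SL 3, A2iL 3 and LCDM 5 at 0.028 to 0.035. Naip5, the flagellin sensor, held the synonymous I1136I in all 10 ESC libraries at 0.114 to 0.196 and had 9 tumour sites, more than any other Naip gene. Its missense pair in neighbouring codons, E1069D (chr13:100221520) and A1068E (chr13:100221524), was listed in 7 tumours. A1068E had 46 alternative reads in T-2iL-P9, 36, 28 and 37 in T-A2iL-P9, 50 in T-A2iL-P14, 37 in T-LCDM-P9 replicate 1 and 31 in T-2iL-F-P9. E1069D had 45, 33, 28, 38, 50, 36 and 29 alternative reads in the same tumours, a difference of at most 3 reads in any of them. Both sites stayed at fractions of 0.1 to 0.144, and A1068E had no dbSNP identifier. The Naip5 splicing site (chr13:100217158) was listed in 7 tumours on only 2 to 5 alternative reads of 4 to 10, so its fractions of 0.3 to 0.75 are loosely determined. Naip1 had 5 tumour sites, of which only the synonymous T72T was coding, at 0.029 to 0.047 in 6 tumours.

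The Nlrp genes had no missense SNV in the ESC set. Nlrp4e had 4 ESC sites, with the synonymous V339V in all 10 libraries at 0.190 to 0.260, and Nlrp5 had 2. The Nlrp5 gene, which encodes the maternal-effect protein MATER of oocytes, held the most tumour sites of any member gene with 14, of which 12 were intronic and 2 synonymous. Nlrp12, a regulator of inflammatory signalling, had 8 tumour sites and Nlrp9b, a sensor of viral RNA in the gut, had 7.

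Nlrp12 E867K (chr7:3231104) had fractions of 0.536 in T-2iL-P9, 0.511, 0.517 and 0.531 in T-A2iL-P9, 0.5 in T-A2iL-P14, 0.481 in T-LCDM-P9 replicate 1 and 0.53 in T-2iL-F-P9. Nlrp12 N972S spanned 0.359 to 0.607. Nlrp1a R1030Q, in a gene for an inflammasome sensor, spanned 0.286 to 0.536, and Nlrp9b L12P spanned 0.220 to 0.422. The Nlrp9b splicing site (chr7:20048679) spanned 0.350 to 0.63 on 34 to 50 reads. All of these were listed in 7 tumours and had a dbSNP identifier. Nlrp3, which encodes the best-studied inflammasome sensor, had sites in T-LCDM-P9 replicate 2 only, both intronic (chr11:59558603 and chr11:59558657), at 0.981 on 53 reads and 0.963 on 27 reads.

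Of the interferon-induced genes, Ifi202b had the highest fraction of any ESC missense member. Ifi202b encodes a DNA-binding protein of the AIM2-like receptors. Its I142F change (chr1:173974843) had fractions of 0.741 and 0.719 in both SL libraries, 0.75 and 0.717 in those of 2iL, 0.770 and 0.63 in those of A2iL, 0.663 and 0.716 in those of LCDM, and 0.695 and 0.810 in those of 2iL-F, on 74 to 147 reads. Both LCDM values lay below those of SL and 2iL, though by as little as 0.716 against 0.717, and the A2iL and 2iL-F pairs overlapped all other media. This order describes 2 libraries per medium and was not tested. MEFs had 0 alternative reads of 64. Ifi204, a related gene, carried G135R in 8 ESC libraries at 0.059 to 0.119 and G149R in SL 5 and 2iL-F 3 at 0.046 and 0.1. Each library listed 1 of the 2, the most that the 10 kb spacing of the lists allows.

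Ifitm2, which encodes an antiviral membrane protein, carried G27R (chr7:140955837) in all 10 ESC libraries at 0.126 to 0.193, on 169 to 257 reads. In the tumours the same exon 1 carried V75I (chr7:140955693) in 6 libraries at 0.058 to 0.115. Ifit1bl2 S281C was listed in T-2iL-P9, T-A2iL-P9 replicate 3 and T-2iL-F-P9 at 0.230, 0.197 and 0.174 and had no dbSNP identifier. Oasl1 and Oasl2, relatives of the 2′-5′ oligoadenylate synthetases, held all 9 Oas sites of the tumours, with 5 and 4. Of these only the synonymous Oasl2 P157P was coding, at 0.351 to 0.600 in 7 tumours. Gbp10 P158L was the only coding Gbp site, in SL 3 at 0.031 on 258 reads (95% Wilson interval 0.0158 to 0.0600). Gbp2b, which encodes an interferon-induced GTPase, had 3 tumour sites in introns and the 3′ untranslated region. Ifi44 had 2 intronic tumour sites.

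**Figure D2:**
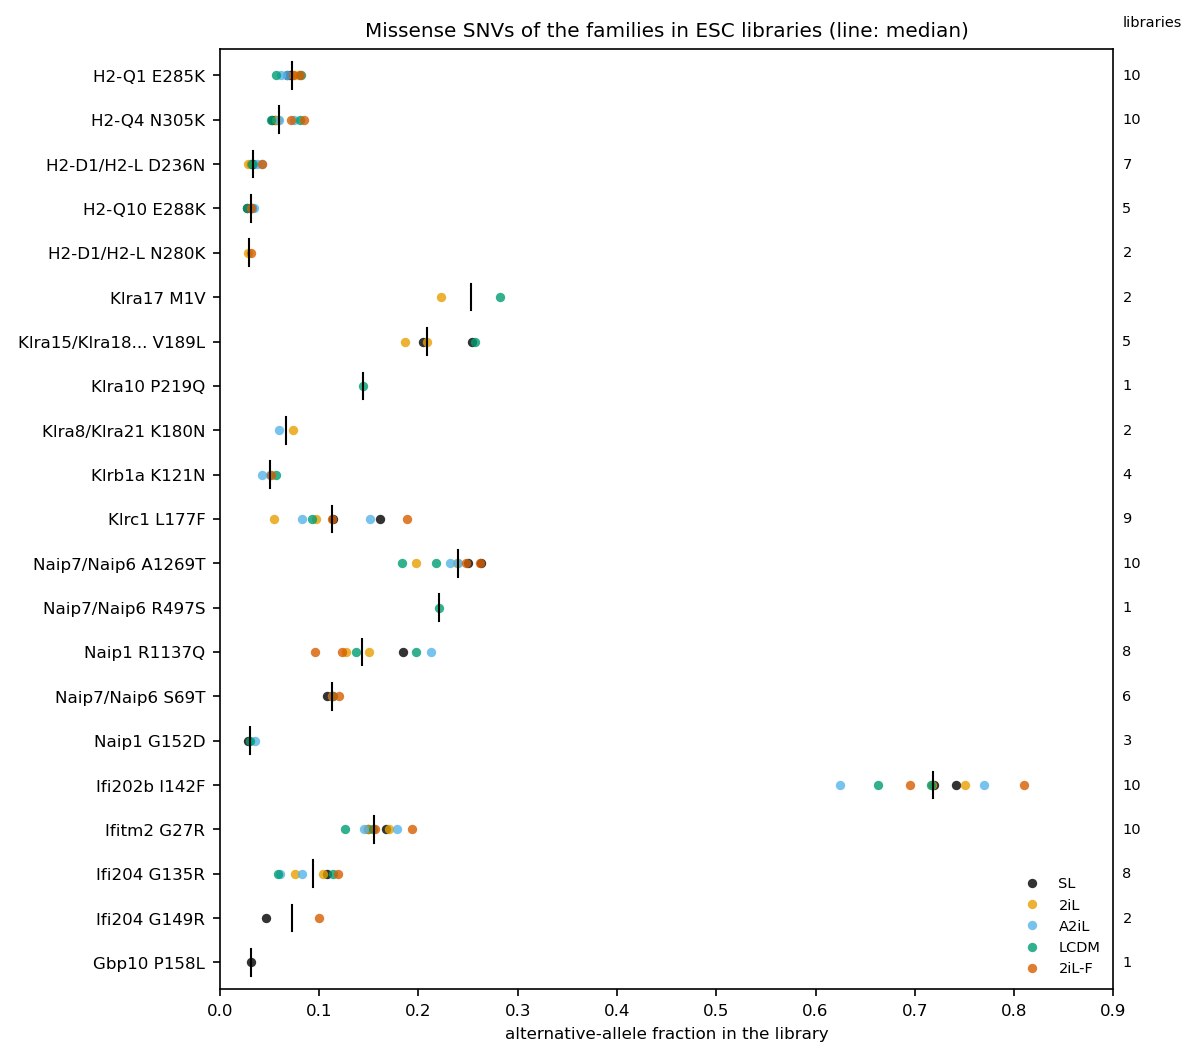
Alternative-allele fraction (horizontal axis) of the 21 missense member SNVs of the ESC set (rows, by family), each point being a library coloured by medium, the line the median and the number on the right the libraries that listed the site. Ifi202b I142F stands at 0.63 to 0.810, while the 5 H2 changes stay at or under 0.085.

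**Figure D3:**
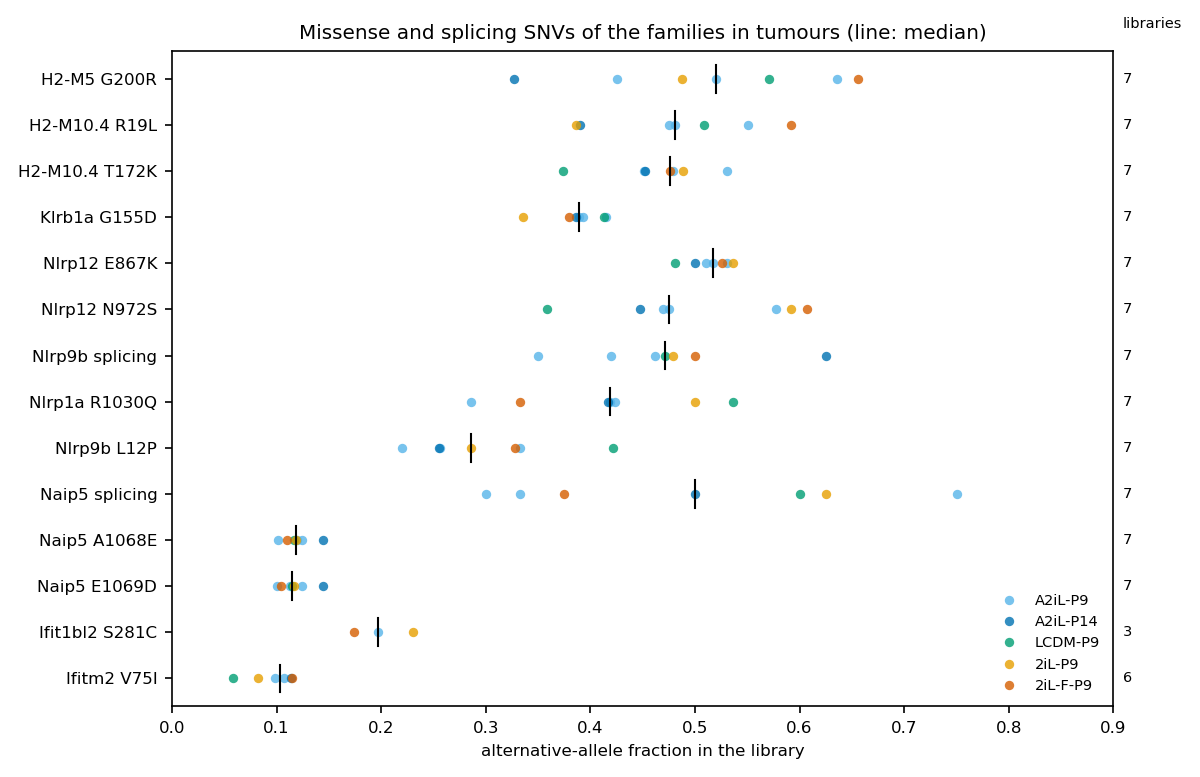
Alternative-allele fraction (horizontal axis) of the 12 missense and 2 splicing member SNVs of the tumour set (rows, by family), with points for tumours coloured by label, lines for medians and the number of tumours on the right. The Naip5 pair and Ifitm2 V75I lie at or under 0.144, and Ifit1bl2 S281C was listed in 3 tumours.

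Sharing between ESC libraries depended on whether sites or loci were counted. Of the 73 ESC sites, 15 were listed in all 10 libraries (17.5% of all ESC non-intergenic sites were) and 17 in 1 library (34.3%). The 5 missense sites in all 10 were those of H2-Q1, H2-Q4, Naip7/Naip6 (A1269T), Ifi202b and Ifitm2. Joining member sites within 10 kb of each other gave 44 loci. A call lay in all 10 libraries at 25 loci and in 1 library at 5. Loci were formed from member sites only, so these counts have no share over all non-intergenic sites beside them. Joining sites can only raise the number of libraries with a call, so the counts do not set these families apart. Of the 15 loci with more than 1 site, 9 had exactly 1 call in each of the 10 libraries. These 9 each spanned less than 10 kb, where the spacing of the ESC lists allows no second call in a library.

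When a member site was missing from an ESC library, a call of any gene lay within 10 kb in that library in 271 of 381 cases (71.1%, with 33.2% over all ESC non-intergenic sites). Of the 17 sites found in 1 library, 5 had no call within 10 kb in the other 9 (60.9% of all such ESC sites): an intron site of Gbp2b in 2iL-F 5, Gbp10 P158L in SL 3, an intron site of Oas1a in LCDM 3, one listed for Klra15, Klra1 and Klra22 in A2iL 5, and one of Naip5 in A2iL 3. Another 9 of the 17 had such a call in every other library (16.5% of all such ESC sites). The sites found in 1 library numbered 5 in LCDM 5 and 0 to 3 in each of the other 9 libraries.

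In the tumours 55 of the 91 sites were listed in 7 libraries (49.1% of all tumour non-intergenic sites were) and 10 in 1 library (26.3%), of which 3 were those of T-LCDM-P9 replicate 2. The 7 tumours were always the 7 other than that replicate. No member site was listed in all 8.

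**Figure D4:**
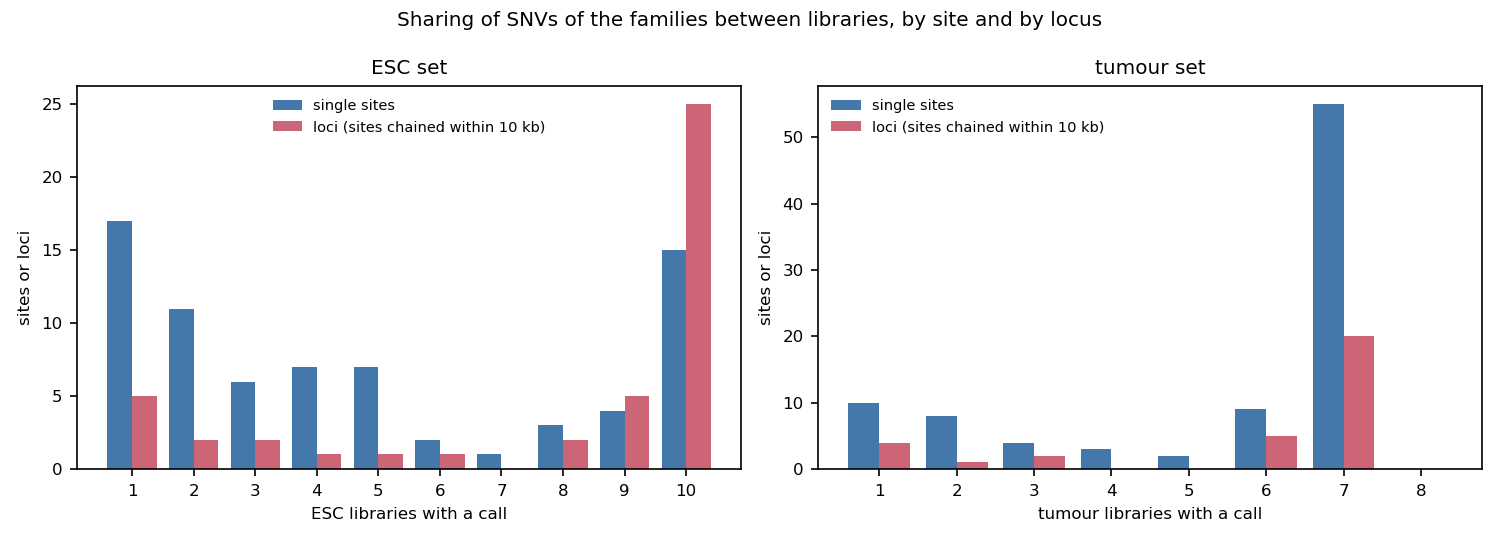
Number of sites (blue) and of loci, that is sites chained within 10 kb (red), on the vertical axis against the number of libraries with a call on the horizontal axis, for the ESC set on the left and the tumour set on the right. In the ESC set 15 sites and 25 loci were found in all 10 libraries, where joining sites can only raise the number of libraries with a call. In the tumour set 55 sites were found in 7 libraries and 0 in 8.

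The media were compared over libraries. The mean number of member SNVs was 35.0 ± 2.83 for SL, 33.5 ± 0.707 for 2iL, 37.0 ± 1.41 for A2iL, 33.0 ± 1.41 for LCDM and 36.0 ± 2.83 for 2iL-F (SD, n = 2 each). The difference was within the spread between libraries (exact permutation test of F over 945 partitions, one-sided, p = 0.403). The median alternative-allele fraction of members averaged 0.164 ± 0.00495 for SL, 0.157 ± 0.00742 for 2iL, 0.181 ± 0.00636 for A2iL, 0.188 ± 0.0322 for LCDM and 0.191 ± 0.00106 for 2iL-F (SD, n = 2 each; exact permutation p = 0.255). The LCDM pair carried most of the spread, at 0.211 and 0.1655. Without LCDM 3 the same test gave p = 0.0159 and without LCDM 5 p = 0.00212 (exact permutation), so this result rests on the LCDM pair.

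Pairs of libraries from the same medium shared a mean Jaccard index of 0.572 of their member sites, against 0.534 for pairs from different media (exact two-sided permutation, difference 0.0384, p = 0.25). The index within a medium was 0.628 for SL, 0.718 for 2iL, 0.574 for A2iL, 0.375 for LCDM and 0.565 for 2iL-F. As the index counts single sites, it also depends on which of several sites closer than 10 kb a list kept. The difference between same-medium and other pairs depended on single libraries. It was 0.00341 without 2iL 3 (exact permutation p = 0.920) and 0.000536 without 2iL 5 (exact permutation p = 0.985). It was 0.0857 without LCDM 3 (exact permutation p = 0.0148) and 0.0768 without LCDM 5 (exact permutation p = 0.0413). Restricted to sites outside segmental duplications it was 0.0884 (exact permutation p = 0.0148).

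The sites listed in both libraries of 1 medium and in no other numbered 3 (2.39% of all ESC non-intergenic sites were of this kind). An intron site of H2-DMb2, an MHC class II chaperone gene (chr17:34147637), was listed in 2iL with 6 alternative reads of 90 and 8 of 112. An intron site of the pseudogene Klra14-ps (chr6:130152349) was listed in SL with 5 of 49 and 4 of 61. None of the other 8 libraries had a call within 10 kb of either. A site in an intron listed for Klra15, Klra18, Klra12, Klra22 and Klra4 (chr6:130044199) was listed in A2iL with 24 of 124 and 24 of 118, and all 8 other libraries had another call within 10 kb.

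Members were then set against all other non-intergenic calls of the same library. The libraries of a set share sites and a control, so the p-values below measure agreement between libraries and not between independent genomes. Segmental duplications, stretches of the genome with a close copy elsewhere, held 49 of the 73 ESC member sites (31.3% of all ESC non-intergenic sites) and 36 of the 91 tumour member sites (3.89%). By family they held 18 of 29 Klra, 9 of 14 H2, 9 of 11 Naip, 6 of 8 Nlrp and 3 of 4 Ifi sites of the ESC set. In the tumour set they held 12 of 17 Naip and 19 of 42 Nlrp sites but none of the 9 Oas sites. The annotated repeats held 5 of 73 ESC member sites (21.2% of all) and 9 of 91 tumour member sites (6.16%).

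Per ESC library, 67.3% ± 3.02 of member calls and 29.8% ± 0.820 of the rest lay in segmental duplications (SD, n = 10). The difference of 37.5 percentage points had the same sign in 10 of 10 libraries (exact sign-flip permutation test, two-sided, p = 0.00195, adjusted over 8 results p = 0.00521). That unadjusted p is the smallest that the sign-flip test can give with 10 libraries. In the tumours 34.7% ± 14.1 of member calls and 2.88% ± 0.545 of the rest did (SD, n = 8), with members higher in 7 of 8 (exact permutation, adjusted p = 0.0250). The exception was T-LCDM-P9 replicate 2, where 0 of its only 3 member calls lay in a duplication. Leaving out any 1 of the other 7 tumours gave an adjusted p of 0.05 (exact permutation), which is the threshold itself.

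Missense changes made up 21 of the 32 coding ESC member sites (54.8% of all ESC coding sites changed the protein) and 12 of the 24 coding tumour member sites (31.6%). Per ESC library 65.2% ± 3.66 of coding member calls changed the protein, against 51.6% ± 1.24 of the rest (SD, n = 10; higher in 10 of 10, exact permutation, adjusted p = 0.00521). Outside segmental duplications the difference was 4.99 percentage points in place of 13.6 and no longer passed the threshold (exact permutation, adjusted p = 0.0791). In the 7 tumours with coding member calls the share was 55.7% ± 3.45 against 29.3% ± 0.186 of the rest (SD, n = 7; higher in 7 of 7, exact permutation, adjusted p = 0.0250). Here too leaving out any 1 of the 7 gave an adjusted p of 0.05 (exact permutation), while the difference stayed between 25.7 and 27.3 percentage points. With all 7 tumours the unadjusted p of 0.0156 was already the smallest that the sign-flip test can give. Fewer tumours raise that smallest value, so the higher p does not show a weaker difference.

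The alternative-allele fraction of ESC members was lower than that of the rest. Per library its median was 0.176 ± 0.0182 for members and 0.266 ± 0.0130 for the rest (SD, n = 10), lower in 10 of 10 (difference -0.0897, exact permutation, adjusted p = 0.00521). Outside duplications the pooled medians were 0.178 for member calls and 0.3 for the rest, and inside them 0.183 and 0.190. The pooled median depths were 148 and 48 reads outside duplications, and 127 and 116 reads inside them. At a depth of at least 20 reads in library and control the difference in fraction was -0.05545 (exact permutation, adjusted p = 0.00521). Whether depth accounts for the difference was not tested. By family the median ESC call had a fraction of 0.085 in H2, 0.155 in Ifi, 0.165 in Naip, 0.2345 in Klra and 0.259 in Nlrp. Fewer than 5 alternative reads supported 8.02% of ESC member calls and 18.6% of the rest.

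In the tumours the median fraction was 0.478 ± 0.204 for members and 0.480 ± 0.129 for the rest (SD, n = 8; exact permutation, adjusted p = 0.984). This value rests on T-LCDM-P9 replicate 2, where the medians were 0.981 and 0.8. Without it members were lower in 6 of the other 7 tumours, T-LCDM-P9 replicate 1 being the exception at 0.444 for members and 0.432 for the rest (mean difference -0.0281, exact permutation, adjusted p = 0.0417). By family the median tumour call had a fraction of 0.425 in H2, 0.4345 in Nlrp, 0.462 in Oas and 0.2755 in Naip. The control itself held at least 1 alternative read at 44.9 to 48.5% of member calls in those 7 tumours, and at 37.3 to 38.1% of the rest. In the ESC set these shares were 5.88 to 13.2% for members and 5.53 to 6.84% for the rest. The control was also read more deeply at members. Its median depth was 51 to 52 reads against 37 to 38 for the rest in those 7 tumours. In the ESC set it was 124.5 to 159 against 54 to 60. Whether control depth accounts for the shares was not tested.

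Depth against the control was the last measure. Over all members the median ratio of library depth to control depth was 1.02 ± 0.129 for ESC members and 0.998 ± 0.113 for the rest (SD, n = 10; higher in 7 of 10, exact permutation, adjusted p = 0.253). Without the Klra family the difference was 0.176 in place of 0.0261 (exact permutation, adjusted p = 0.00391), outside segmental duplications it was 0.103 (adjusted p = 0.0293), outside duplications and repeats 0.102 (adjusted p = 0.00586), and without calls that had an alternative read in MEFs it was -0.0464 (exact permutation, adjusted p = 0.0755). In the tumours the ratio was 0.894 ± 0.154 for members and 0.891 ± 0.110 for the rest (SD, n = 8; exact permutation, adjusted p = 0.984).

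The families differed among themselves. A relative depth was formed by dividing each call's ratio by the median ratio of the rest of its library, so that 1 is the level of other calls. All ESC libraries share the 1 MEF control, so a control depth that is low or high at a gene moves all 10 together. Klra calls had a median relative depth of 0.723 over the libraries (range 0.645 to 0.867), below 1 in 10 of 10. H2 calls had 1.21 (1.1 to 1.32), above 1 in 10 of 10. The H2 genes with a median below 1 were H2-M10.1 at 0.612 (0.520 to 0.774), H2-T3 at 0.823 (0.605 to 0.964) and H2-DMb2 at 0.793. Ifi calls had 1.34 (1.09 to 1.46), above 1 in 10 of 10. Each library had only 3 Ifi calls, and Ifitm2 alone had 1.34 (1.09 to 1.47), while Ifi204 was above 1 in 0 of 10. Naip calls had 1.45 (0.946 to 1.92), above 1 in 8 of 10, and Nlrp calls 0.847 (0.443 to 1.30). Within Naip only Naip7/Naip6 was raised throughout, at 1.86 and above 1 in 10 of 10. Naip5 had 0.983, above 1 in 5 of 10, and Naip1 had 0.771, above 1 in 2 of 9.

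Genes of the same family departed in opposite directions. Klra17 had a relative depth of 1.80 (1.11 to 2.07), against 0.429 (0.332 to 0.57) at the site listed for Klra15, Klra22 and Klra3 and 0.688 (0.53 to 0.814) at Klra7. The site listed for Klra3 had 36 to 67 reads in the libraries and 127 in MEFs. The Naip7/Naip6 A1269T site had 179 to 246 reads in the libraries and 98 in MEFs, a relative depth of 1.98 to 2.51, while Naip5 calls had 0.983 (0.817 to 1.13). Ifi202b had 1.67 (1.37 to 2.04), on 74 to 147 reads in the libraries and 64 in MEFs, while Ifi204 had 0.572 (0.474 to 0.719). In the tumours Ifitm2 had 1.68 (1.35 to 1.89) in 6 tumours, whereas Nlrp4e had 0.516 (0.461 to 0.864) and H2-T3 0.645 (0.583 to 0.780) in 7. The Nlrp4e sites disagreed: an intron site (chr7:23340630) had 1.31 (1.1 to 1.53), above 1 in 7 of 7.

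**Figure D5:**
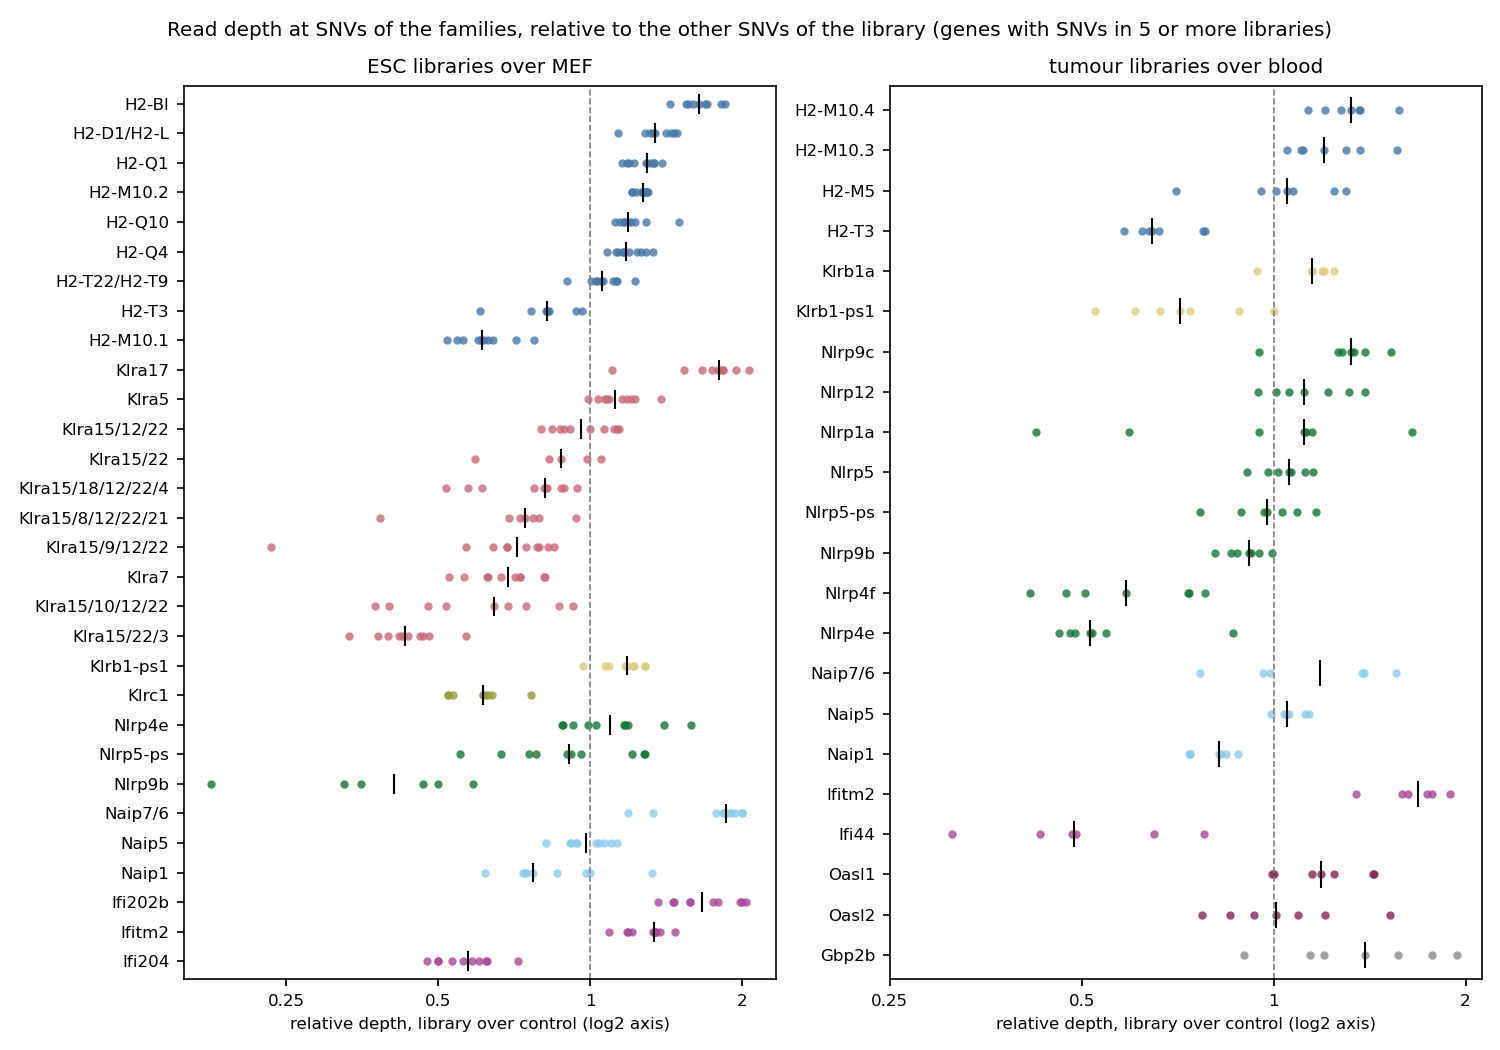
Relative depth (horizontal axis, log2 scale; library over control, divided by the median of the other SNVs of the library) of member genes with SNVs in at least 5 libraries (rows, coloured by family), each point being a library's median over the gene's calls and the line the median over libraries. The dashed line marks 1; Klra17 and Naip7/Naip6 lie at 1.80 and 1.86, and the site listed for Klra15, Klra22 and Klra3 at 0.429.

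The 3 T-A2iL-P9 tumours averaged 71.3 ± 5.77 member SNVs, against 54.0 ± 34.1 in the 4 other P9 tumours (SD, n = 3 and 4). The difference of 17.3 was within the spread (exact two-sided permutation test, p = 0.686, the smallest possible being 0.0286). Without T-LCDM-P9 replicate 2 the other tumours averaged 71.0 ± 3.61 (n = 3) and the difference was 0.333 (exact permutation p = 1). With 1 to 3 tumours a label, the remaining labels were not compared.

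In both sets 2 member sites were listed, 2.74% of the ESC member sites and 2.20% of the tumour member sites. Of all non-intergenic sites 7.29% of the ESC set and 1.25% of the tumour set were listed in both. An intron site of the pseudogene Nlrp5-ps (chr7:14580812, C to T) was listed in all 10 ESC libraries at 0.148 to 0.357 and in 7 tumours at 0.152 to 0.344, without a dbSNP identifier. The synonymous H2-T3 L186L (chr17:36189246) was listed in 2iL 5, A2iL 3 and 2iL-F 3 at 0.090 to 0.123 and in T-2iL-P9 at 0.129.

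Partner genes of the same pathways outside the 9 families were counted from lists chosen with earlier results of these data known. Of all protein-coding RefSeq genes, 7.20% had a non-intergenic ESC site and 15.6% a tumour site. Among 19 genes of MHC loading and regulation, 1 had an ESC site, Cd1d1, with none coding, and 5 had a tumour site, with 24 sites in all. Ciita, the master regulator of MHC class II, carried R957H at a fraction of 1 on 27 reads, and Calr, a chaperone of class I, P114R at 0.114 on 79 reads, both in T-LCDM-P9 replicate 2 only. The same tumour listed synonymous Ciita sites from Q426Q to F732F at 0.952 to 1, and the synonymous Ciita L44L was listed in the 7 other tumours at 0.432 to 0.622. Of 12 further natural killer receptor and ligand genes, 1 had an ESC site and 2 had tumour sites, among them Clec2g N12S at 0.073 to 0.095 in 2 tumours. Of 11 inflammasome genes, 3 had ESC sites, including the synonymous Pycard K89K in all 10 libraries at 0.307 to 0.560, and 4 had tumour sites, none of which changed a protein. Of 24 interferon response genes, Igtp, an immunity-related GTPase, carried V196I in 8 ESC libraries at 0.034 to 0.084.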

How the data were processed

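Per the labels' protocols genomic DNA was sheared and captured, although the series text names ATAC-seq for the tumours. BWA, SAMtools, Picard and the mm10 build are named per the submitters' processing notes; no SNV caller is named there. The deposited lists give, per the file headers, genotype, reads per allele, base quality, depth and alternative-allele fraction of a library and its control, with the gene, region, consequence, segmental duplications, repeats and dbSNP 142 identifiers. All 91523 deposited lines were marked as passing and somatic.

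Members and lists were chosen with earlier results of these data known. Python 3.11.15, pandas 2.3.3 and SciPy 1.17.1 were used. Members were compared with the other non-intergenic calls of the same library by exact sign-flip tests over libraries, adjusted over 8 results by Benjamini and Hochberg with calls made at an adjusted p of at most 0.05. Media and tumours were compared by exact permutation over libraries. The tests were checked on simulated data. At the 1095 member calls shared by pairs of ESC lists, library reads were identical in 0.274% and control reads in 100%, so libraries are distinct and the control is shared. Label numbers 3 and 5 showed no pairing of the ESC libraries at the 439 sites listed in all 10: correlations of their deviations lay between -0.142 and 0.102. Sites absent from some libraries did not enter, so these values cannot exclude a pairing. Of the 59 symbols, 51 were found in RefSeq GRCm38.p6 and 1 as a synonym; 162 of 164 sites lay inside a listed gene. Named genes were the up to 3 with most sites per family and set, those with splicing sites, those with protein-changing ESC sites in all 10 libraries, in 1 library, or in both of 1 medium, tumour genes with protein-changing sites lacking a dbSNP identifier, and genes in both sets; others were named to complete a family. Depth per call, rather than total reads, sets the precision. The columns of the T-2iL-P9 and T-2iL-F-P9 lists carry prefixes that the labels do not explain, so each list was placed by the sample it was deposited with. Alternatives were minimum depth, alternative reads and base quality, leaving out duplications, repeats, the largest family or calls with control reads, taking the first listed gene only, percentages in place of counts, leaving out each library, and a replicate block.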

Additional observations from a re-analysis of the deposited data

Results flagged for a closer look

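T-LCDM-P9 replicate 2 was far from the other 7 tumours in 4 of the measures of members, each by a gap larger than Dixon's 95% limit for 8 samples. It had 3 member SNVs where the nearest tumour had 68. Members were 0.0843% of its non-intergenic calls, with 0.698% in the nearest tumour. None of its 3 member calls lay in a segmental duplication (0%), with 36.8% in the nearest tumour. A share over 3 calls is loosely determined. Its other non-intergenic calls went the other way, with 4.22% in a duplication against 2.56 to 2.82% in the other 7 tumours. The median alternative-allele fraction of its member calls was 0.981, with 0.444 in the nearest tumour. Its 3 sites were 2 in introns of Nlrp3 and 1 in an intron of Ifitm7, which stood at a fraction of 1 on 12 reads (95% Wilson interval 0.758 to 1). The 8 tumours carry 5 labels and are not 1 group. In all, 18 sets of values were examined, and chance flags about 1 in 20.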

How the results depend on the processing

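Of 196 recomputed values, 174 kept their direction and side of the threshold. Adjusted p-values are from exact permutation tests. For the tumour allele fraction the difference was 0.0319 at a depth of at least 20, and -0.0281 to 0.00636 when tumours were left out in turn. The protein-changing difference in ESCs was 4.99 outside segmental duplications and 4.98 outside duplications and repeats (exact permutation, adjusted p = 0.0791 and 0.0820). The ESC depth ratio difference was 0.103 outside duplications, 0.102 outside duplications and repeats, 0.176 without Klra and -0.0464 without calls that had a control alternative read. That of the tumours was -0.0219 without Nlrp, -0.00125 without such calls and -0.0228 to 0.0167 when tumours were left out in turn. Leaving out ESC libraries in turn gave exact permutation p = 0.00212 to 0.471 for the allele fraction across media and a sharing difference of 0.000536 to 0.0857; sharing outside duplications differed by 0.0884. The cause of these changes was not tested. With the label number as a replicate block, the exact permutation p across media was 0.483 for counts and 0.3 for allele fractions, and it changed no call. A replicate block on the numbers that T-A2iL-P9 and T-LCDM-P9 share, chosen after seeing the data, gave a difference of 32.5 SNVs (exact permutation p = 1). The counts were 68 and 68 for replicate 1, and 68 and 3 for replicate 2. With replicate 1 tied, every swap gives the same absolute difference, so this p was fixed in advance and decides nothing. At 145 to 950 reads the H2 exon 4 fractions are well sampled, whereas 27 ESC and 102 tumour member calls had under 20 reads.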
